A study of Homo sapiens with 24 samples.

Results

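The proteasome is the protease complex that degrades most ubiquitin-tagged proteins in human cells. A barrel-shaped core particle, with rings of alpha subunits (PSMA genes) around rings of beta subunits (PSMB genes), holds the active sites. A regulatory particle (PSMC and most PSMD genes) binds, unfolds and feeds the substrate. Alternative activators (PSME genes), an inhibitor (PSMF1) and dedicated assembly chaperones (PSMG genes) complete the family. N1-methyladenosine (m1A) is a methyl mark on adenosine that blocks base pairing. In messenger RNA it has been described mainly near the 5′ end, and ALKBH3 is an enzyme that removes it.

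The members were the protein-coding genes whose RefSeq symbol begins with PSMA, PSMB, PSMC, PSMD, PSME, PSMF or PSMG. There were 50 of them among 20056 protein-coding genes of the RefSeq gene table: 19 core particle genes, 20 regulatory particle genes, 5 genes of activators and the inhibitor, 4 assembly chaperone genes, and 2 genes that share only the naming (PSMC3IP, a factor of meiotic recombination, and PSME3IP1, whose product binds PSME3). By symbol, the regulatory particle class includes PSMD5, PSMD9 and PSMD10, 3 chaperones of base assembly, while the assembly chaperone class holds PSMG genes only. The regulatory particle subunits SEM1 (of the lid) and ADRM1 do not have such symbols. They were counted among the genes that work with the proteasome. Pseudogenes (53) and noncoding genes (8) with such symbols were left out. The lists held 280 peaks on 87 transcripts of these genes, of 61237 peaks in all.

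The study profiled m1A in HEK293T, a human embryonic kidney cell line, by immunoprecipitation of polyadenylated RNA with an antibody against m1A (IP) followed by sequencing. The groups were cells with ALKBH3 knocked out (KO), wild-type cells incubated with 50 µM H2O2 for 30 min (H2O2), wild-type cells kept 16 h in medium without serum (Starve), untreated wild-type cells of the stress experiment (UT) and untreated wild-type cells of the knockout experiment (WT). Each had 2 IP libraries and so 2 peak lists, and KO and WT also had libraries in which the IP RNA was treated with a demethylase. All cells were grown in DMEM with 10% FBS before treatment. The labels do not say whether the KO line is 1 clone or how the knockout was made.

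ALKBH3 itself had no peak in any of the 10 lists, so the lists could not check the knockout. Of 9 marker genes of other cell types, COL1A1, a collagen gene of fibroblasts, had a peak (in both UT lists) and the other 8 had none in any list. The lists held 2175 to 11362 peaks, and the lowest pileup (the number of reads stacked at a peak's summit) per list was 16 to 33; library totals were not given in the files. The descriptions of the UT libraries name the Starve lists, so the UT lists were matched by their own names, and every comparison with UT rests on that. Whether the replicates were separate cultures is not stated, so spreads and p-values cover only the difference between these libraries, which may be technical.

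The region printed for 7 genes is the start of the transcript with the promoter before it, since most of the recurrent peaks lay within 300 nt of the start. PSMB4 and PSMD2 are shown as genes whose 5′ peak recurred in 7 and 8 lists. PSMD3, PSMD7, PSMD8 and PSMD12 are 4 of the 5 lid genes called in both KO lists, and PSMD6 is not printed. PSMC1 is the gene called in both WT lists and in no KO list. Each sequence holds 50 bases before the annotated start and the first 30 bases of the transcript, 5′ to 3′ on the gene's strand, from RefSeq (GRCh38.p14). The 5′ peak regions of PSMD2, PSMD3, PSMD7, PSMD8 and PSMC1 begin beyond these 30 bases. Capitals mark CTTCCGG or its reverse complement CCGGAAG, a core sequence bound by ETS-family factors, which 4 of the 7 stretches hold. The 7 genes were picked, and the share over such stretches of all genes was not counted.
PSMB4, chr1:151399523-151399602, plus strand: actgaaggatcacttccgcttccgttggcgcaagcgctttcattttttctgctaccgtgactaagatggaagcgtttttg
PSMD2, chr3:184299191-184299270, plus strand: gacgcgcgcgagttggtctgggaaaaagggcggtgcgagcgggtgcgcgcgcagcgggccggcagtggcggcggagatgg
PSMD3, chr17:39980757-39980836, plus strand: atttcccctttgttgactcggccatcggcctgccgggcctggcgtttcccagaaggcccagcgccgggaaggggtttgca
PSMD7, chr16:74296764-74296843, plus strand: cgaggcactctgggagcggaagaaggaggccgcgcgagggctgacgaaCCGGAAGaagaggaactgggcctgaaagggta
PSMD8, chr19:38374521-38374600, plus strand: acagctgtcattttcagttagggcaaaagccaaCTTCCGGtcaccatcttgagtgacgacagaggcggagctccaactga
PSMD12, chr17:67366548-67366627, minus strand: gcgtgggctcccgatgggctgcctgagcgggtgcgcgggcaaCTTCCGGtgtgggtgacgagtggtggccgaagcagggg
PSMC1, chr14:90256503-90256582, plus strand: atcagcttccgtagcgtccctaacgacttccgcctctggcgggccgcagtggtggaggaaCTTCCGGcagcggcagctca

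A sequence from 250 bases before to 50 bases after the start was on hand for 44 of the 50 genes. CTTCCGG, searched on both strands, was in 14 of these 44 windows (31.8%), against 14.2% of the 15843 windows of protein-coding genes. TGACNNNGC, the core of the element bound by NFE2L1 and NFE2L2, factors known to drive proteasome genes, was in 13 of 44 (29.5%), against 14.3%. GTTCNANNC, the sequence around m1A in tRNA T-loops and in a class of messenger RNA sites, was searched on the sense strand of the first 50 transcript bases and was in 0 of 44, against 0.467% of all. The first transcript base was A in 21 (47.7%, against 50.7% of all) and G in 20 of the 44 (45.5%, against 36.2%). These letters come from the current annotated start, which may differ from that of the transcript versions the authors used. Most peaks of the members began beyond the first 50 bases, which cover at most the 5′ part of the others. The RNA under the peak summits was not analysed here.

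Peaks on proteasome genes were common: 42 of the 50 genes (84%) had a peak in at least 1 list, against 8841 of 20056 protein-coding genes (44.1%). The 8 genes with none were PSMA3, PSMA8, PSMB8, PSMB9, PSMB10, PSMB11, PSMC5 and PSMD5. They include the 3 interferon-inducible core subunits PSMB8, PSMB9 and PSMB10 and the 2 tissue-restricted ones, the testis subunit PSMA8 and the thymus subunit PSMB11. Apart from these 5 genes, 13 of 14 core particle genes had a peak, with PSMA3 the exception. The regulatory particle had 18 of 20 genes with a peak, among them 8 of 8 PSMD lid genes and 5 of 6 ATPase genes. All 5 genes of activators and the inhibitor and all 4 assembly chaperone genes had one. A peak requires enough RNA, and RNA levels were not analysed here, so a gene without a peak cannot be told apart from one that is little expressed.

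Few members recurred in most lists, as was so for all genes. PSMB4, PSMD2 and PSME3 had a peak in 8 of 10 lists, PSMD4 in 7, and no member in 9 or 10. The share in 8 or more lists was 3 of the 42 genes with a peak (7.14%), against 5.68% of protein-coding genes with a peak. In all, 14 of the 42 genes with a peak (33.3%) were in 5 or more lists, against 25.1% of protein-coding genes with a peak.

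**Figure D1:**
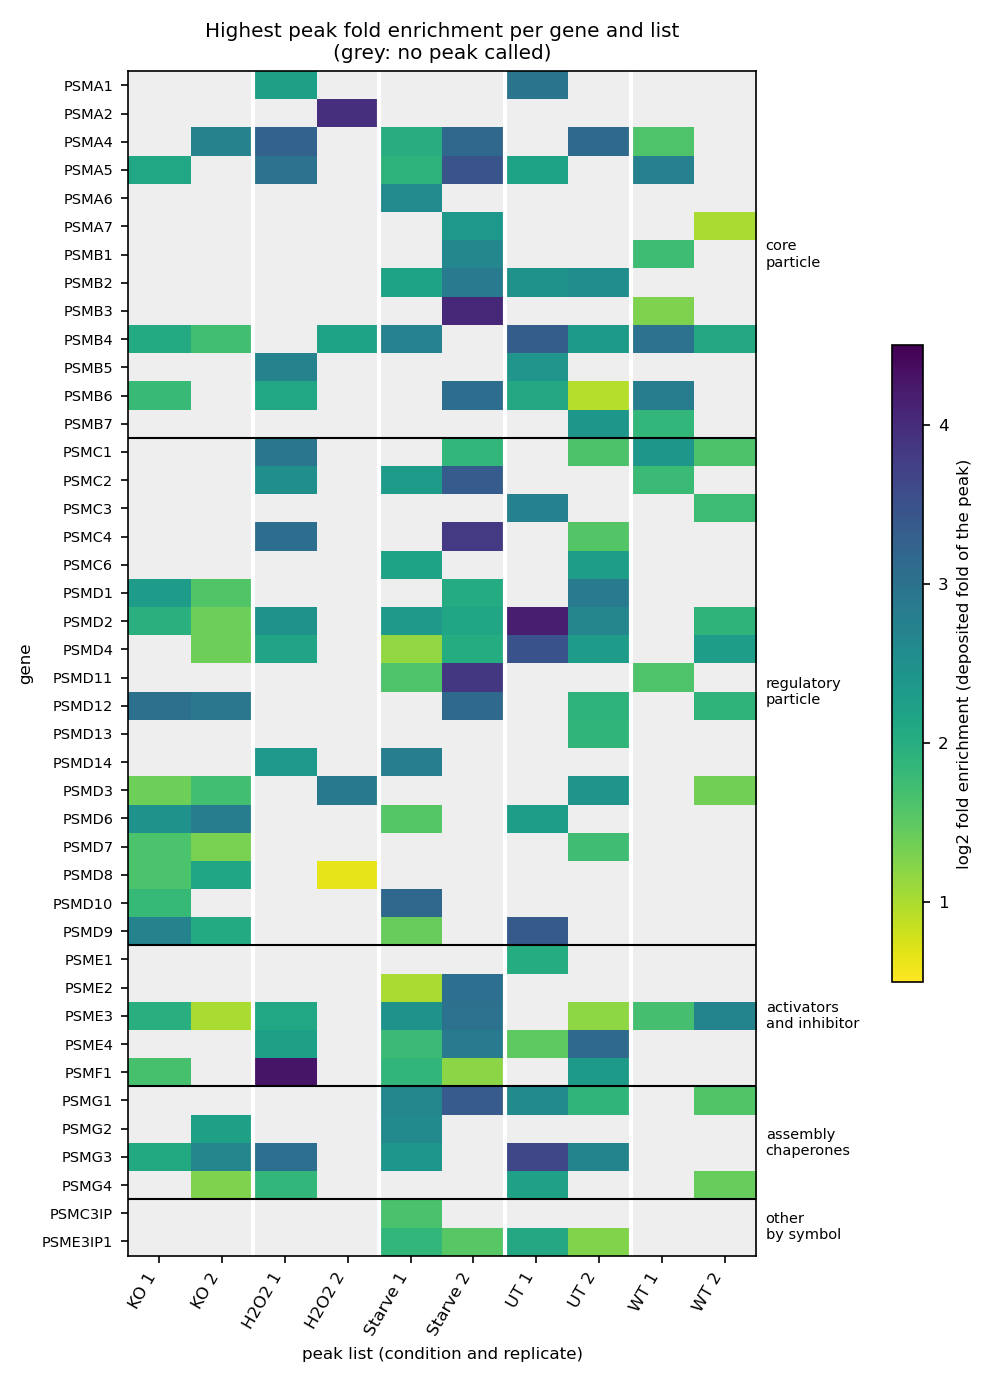
Highest fold enrichment (log2 colour scale, the authors' fold of each peak over local background) for the 42 proteasome genes with a peak (rows, grouped by class) in each of the 10 peak lists (columns); grey cells held no peak. Both KO columns are filled for 8 PSMD genes and for no PSMA or PSMC gene, and the second H2O2 column holds 4 genes. Both UT columns too are filled for no PSMA or PSMC gene.

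The number of proteasome genes per list followed the length of the lists only in part. There were 15 in each KO list, 16 and 4 in the H2O2 lists, 23 and 21 in the Starve lists, 17 and 21 in the UT lists, and 11 in each WT list. The KO and WT values did not overlap, with 15 ± 0 in KO and 11 ± 0 in WT (SD, n = 2 each), and the exact two-sided permutation p of 0.3333 is the smallest that 2 lists against 2 allow. Per 1000 called protein-coding genes the values were 7.50 and 7.35 in the KO lists and 8.97 and 5.54 in the WT lists, which overlap (exact permutation p = 1). The H2O2 lists had 4.76 and 2.06 per 1000, the Starve lists 4.94 and 5.66, and the UT lists 4.79 and 5.16. None of the 4 comparisons gave a p below 0.3333.

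Agreement between replicates varied by condition. Of the proteasome genes in either KO list, 11 of 19 (57.9%) were in both, near the 54.8% of all protein-coding genes. The share was 0 of 20 in H2O2, where all protein-coding genes gave 23.2%, 13 of 31 in Starve (41.9%, against 35.5%), 9 of 29 in UT (31.0%, against 31.9%) and 3 of 19 in WT (15.8%, against 28.4%).

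The KO lists held mostly regulatory particle genes. In KO, 8 of 20 regulatory particle genes (40%) were in both lists, against 1 of 19 core particle genes (5.26%). Without the inducible and tissue-restricted core genes, which had no peak in any list, the core count was 1 of 14 (7.14%). Over all protein-coding genes 7.13% were in both KO lists. The 8 were the base scaffold subunits PSMD1 and PSMD2, the lid subunits PSMD3, PSMD6, PSMD7, PSMD8 and PSMD12, and PSMD9, a chaperone of base assembly. They included 5 of 8 PSMD lid genes and 0 of 6 ATPase genes, and the core gene was PSMB4, a beta ring subunit. SEM1, the lid subunit without such a symbol, had a peak in neither KO list. ATPase genes in both lists were also 0 of 6 in UT and H2O2, and 1 of 6 in Starve and WT. PSMD lid genes in both lists were 1 of 8 in Starve and 0 of 8 in H2O2, UT and WT. Kept to peaks with a fold of 4 or more, 3 regulatory and 0 core genes were in both KO lists. With an equal number of top peaks per list, 3 and 1 were. The share over all protein-coding genes under these filters was not counted. No test of the difference between the classes was made, since genes are not replicates.

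By genes in both lists, the classes were closer in the other conditions. Both H2O2 lists shared 0 genes of either class (4.98% over all protein-coding genes). Both Starve lists shared 4 regulatory (20%) and 3 core genes (15.8%), against 10.9% over all. Both UT lists shared 2 regulatory (10%) and 3 core genes (15.8%), against 9.18% over all, and both WT lists shared 1 of each, PSMC1 and PSMB4, against 3.54% over all. Single KO lists held 9 and 9 regulatory and 3 and 2 core genes (9.97% and 10.2% of protein-coding genes). Starve lists held 9 and 8 regulatory and 5 and 7 core genes (23.2% and 18.5%). UT lists held 5 and 10 regulatory and 6 and 5 core genes (17.7% and 20.3%). H2O2 lists held 6 and 2 regulatory and 5 and 2 core genes (16.8% and 9.69%). The WT replicates went opposite ways. The first list held 3 regulatory and 7 core genes (6.11% of protein-coding genes), and the second 6 regulatory and 2 core genes (9.90%). These counts are small and moved with the peaks kept. With every list shortened to an equal number of top peaks, both lists shared 0 regulatory and 0 core genes in Starve, 1 and 0 in UT, and 0 and 1 in WT. With a fold of 4 or more they shared 2 and 2 in Starve, 2 and 2 in UT, and 0 and 1 in WT. Here too the share over all protein-coding genes under the same filter was not counted.

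**Figure D2:**
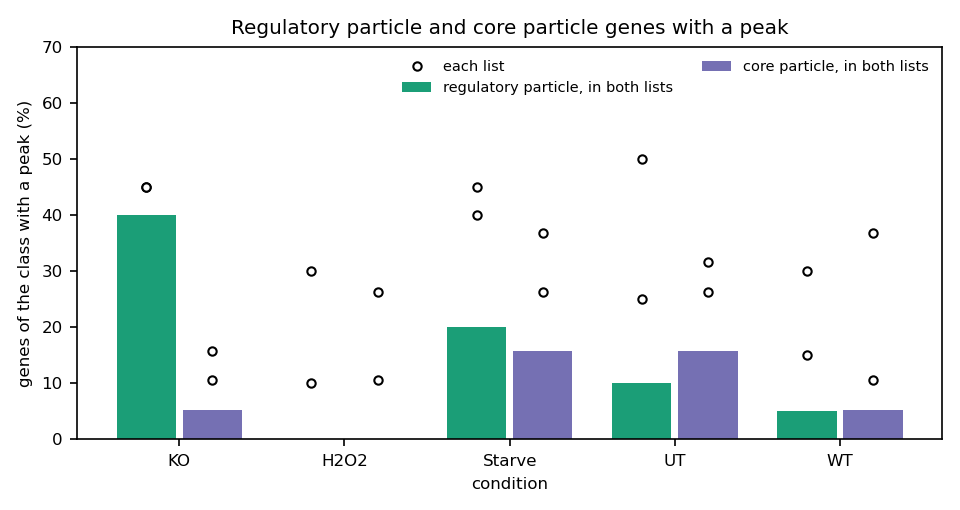
Share of the 20 regulatory particle genes (green) and the 19 core particle genes (purple) with a peak in both lists of a condition (bars) and in each list (open circles, 2 per bar). The 19 core genes include the inducible and tissue-restricted subunits, which had no peak in any list. In KO the bars stand at 40% and 5.26%; the WT circles of the 2 classes lie in the opposite order in the 2 replicates, which the bars do not show.

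Comparing KO with WT, the series asks which sites ALKBH3 controls. PSMD1, PSMD6, PSMD7, PSMD8, PSMD9 and PSMG3 had a peak in both KO lists and in no WT list, which is called KO alone here. They were 6 of the 28 proteasome genes with a peak in either condition (21.4%), where 16.3% of all 3903 genes were called so. PSMC1, an ATPase subunit, was the 1 gene of 28 called in WT alone, where 4.97% of all genes were. Counted by region, PSMD12 joined the KO genes, giving 7 genes (18.9% over all genes), and PSMC1 stayed (5.2%). With every list shortened to its top peaks, as many as the shortest list held, the KO count was 3 and the WT count 0. The WT count was 4 when a peak in the second WT list sufficed and 6 when one in the first sufficed.

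The peaks behind these calls had their summits at nt 89 to 347 from the transcript start. PSMD6, a lid subunit, had a pileup of 107 and 125 and a fold of 5.44 and 7.03 on its transcript NM_001271779 in the KO lists, with summits at nt 235 and 252. PSMD8, another lid subunit, had pileups of 273 and 331 and folds of 3.09 and 4.44, with summits at nt 296 and 347. PSMD7, the lid subunit that pairs with the deubiquitinase PSMD14, had lower folds of 3.11 and 2.48 and pileups of 106 and 81. The WT lists held no peak on these 3 genes. A list gives no value where nothing was called, so no fold change could be formed.

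PSMD1, a base scaffold subunit, had folds of 4.23 and 3.01 in the KO lists on NM_002807, with summits at nt 151 and 120. PSMD9 had folds of 4.82 and 4.16 on NM_001261400, with summits at nt 158 and 145. PSMG3, a chaperone of alpha ring assembly, had folds of 4.18 and 6.42 and summits 12 nt apart, at nt 89 and 101. These 3 genes too had no peak in either WT list. PSMD12, a lid subunit, had the highest folds of the group, 8.17 and 7.50 on NM_002816 in KO. Its other transcript NM_174871 had a peak in the second WT list (fold 3.72, summit nt 109), so PSMD12 was not called in KO alone as a gene. PSMC1 had folds of 5.20 and 3.06 in the WT lists, with summits at nt 107 and 125.

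The UT lists, by the labels also from untreated wild-type cells, held a peak on 5 of the 6 genes called in KO alone, PSMD8 being the exception. For PSMD6, PSMD7, PSMD9 and PSMG3 a UT peak overlapped a KO peak. Over all 619 protein-coding genes called in KO alone, 61.2% had a UT peak and 32.5% an overlapping one. For PSMD9 the highest fold on any transcript was 10.3 in the first UT list, against 6.52 and 4.16 in the KO lists. For PSMD7 the UT fold was 3.31 in the second UT list. Folds of different lists were scaled by different libraries and show no change in m1A.

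UT was set against WT in the same way. PSMB2, PSME3IP1, PSME4 and PSMG3 were called in UT alone, 4 of 34, where 14.2% of all 6670 genes were. No member was called in WT alone (1.57% over all). By region both counts were 0 (6.58% of all genes for UT alone and 2.98% for WT alone). The UT count was 10 without the first UT list, 9 without the second, and 7 without the second WT list, and the WT count was then 0, 2 and 4.

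H2O2 was set against UT to find stress-induced sites. No proteasome gene was called in H2O2 alone, of 33 with a peak, where 2.49% of all 7517 genes were. PSMB2, PSME3IP1 and PSMG1 were called in UT alone, 3 of 33, where 8.23% of all genes were. The H2O2 count was 2 without either H2O2 list, and the UT count was 8 without the first H2O2 list, 9 without the first UT list and 7 without the second. The second H2O2 list held only 4 member genes, PSMA2, PSMB4, PSMD3 and PSMD8, and the first held 16 others. PSMA2, an alpha ring subunit, had a fold of 15.5 at nt 499 in the second H2O2 list, and no peak in any other list. PSMF1, the inhibitor, had the highest fold of any member, 19.3 in the first H2O2 list at nt 132. Its 5′ region was also called in a KO list (3.16), a Starve list (3.35) and a UT list (4.998).

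Counted by region, PSMB4 and PSMG1 were called in UT alone against H2O2, 2 of 33, where 5.49% of all genes were, and no member in H2O2 alone (2.33% over all). The 5′ peak of PSMB4 was in 7 lists, both KO, both UT, both WT and the first Starve list, and in neither H2O2 list nor the second Starve list. In the second H2O2 list PSMB4 had another peak with its summit at nt 676 (pileup 153, fold 4.52). The UT lists had weaker peaks there too, at nt 586 (fold 2.09) and nt 693 (fold 2.36).

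Starve was set against UT in the same way. PSMC2, PSMD11 and PSME2 were called in Starve alone, 3 of 40, where 6.07% of all 8465 genes were. No member was called in UT alone (4.08% over all). The Starve count was 6 without the first Starve list, 8 without the second and 6 without the second UT list, and the UT count was 1 to 5 with 1 list left out. PSMD11, a lid subunit, had a peak at nt 2114 on NM_002815 in the first Starve list (fold 3.05), and peaks at nt 451 (fold 13.9) and nt 2219 (fold 14.1) in the second. PSMC2, an ATPase subunit, had a peak at nt 212 on NM_002803 in the first Starve list (fold 4.88), and peaks at nt 692 (fold 8.80) and nt 1251 (fold 10.1) in the second. PSME2, a subunit of the interferon-inducible activator, had 2.02 at nt 523 and 8.23 at nt 82. The Starve peaks of the 2 lists thus did not overlap on PSMC2 or PSME2. By region, PSMB2, PSMD11, PSME3IP1 and PSMG1 were called in Starve alone, 4 of 40 (5.34% over all genes), and none in UT alone (4.06%). PSMG1 also had UT peaks on its transcript NR_049728, so its region call rests on its other transcripts.

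The most recurrent peaks differed in how closely their summits lay together across conditions. On PSMD2, the base scaffold subunit that docks ubiquitin receptors, 8 lists had a peak between nt 80 and 305, with summits at nt 216 to 247. Its folds there were 3.88 and 2.61 in KO, 2.25 in the first H2O2 list, 5.08 and 4.38 in Starve, 17.9 and 6.42 in UT, and 3.74 in the second WT list. On PSMB4 the 7 summits at the 5′ end lay within 14 nt, at nt 96 to 110, with folds of 4.17 and 3.27 in KO, 6.61 in the first Starve list, 9.98 and 4.99 in UT, and 8.04 and 4.25 in WT. PSMD4, a ubiquitin receptor, had 7 summits at nt 100 to 137. PSMG3 had 5 summits at nt 89 to 101. Its highest fold on NM_032302, 12.3, lay apart from these at nt 1180 in the first UT list. The summits were further apart on PSMA5, an alpha ring subunit (6 lists, nt 86 to 166), on PSMB6, a catalytic beta ring subunit (6 lists, nt 107 to 189), and on PSMG1 (5 lists, nt 125 to 199 on NR_049728). Among the regions in 4 lists, the summits spanned 35 nt on PSMD12 and up to 255 nt on PSMD3.

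PSME3, the nuclear activator subunit, was less fixed in place. On NM_001267045 its region at nt 283 to 530 was in 6 lists, with folds of 2.01 to 6.49, while the first WT list and the second Starve list had peaks further along. The gene therefore counts 8 lists, but no single region of it does. PSME4, a nuclear activator linked to DNA repair, had its UT peaks at nt 43 and 3636, far apart. In the core particle, PSMB3 had its highest fold, 16.7, in the second Starve list at nt 508, and PSMA5 had 10.98 in the same list at nt 166. PSMC4, an ATPase subunit, had 14.1 in that list at nt 781, and PSMG2, a chaperone that pairs with PSMG1, had 6.06 in the first Starve list at nt 109. PSMC3IP had 1 peak on the transcript used for position, in the first Starve list at nt 317 (fold 3.13). Of these 5 genes, PSMA5 and PSMG2 had a peak in 1 KO list each and the others in none.

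Position was read on 1 transcript per gene, that with the most peaks, after merging overlapping peaks of all lists into regions. Of 81 regions, 31 had their median summit within 300 nt of the transcript start (38.3%, 95% Wilson interval 28.4 to 49.2), against 5841 of 20959 regions on protein-coding genes (27.9%). The interval covers counting error only. By class the counts were 13 of 39 in the regulatory particle, 10 of 19 in the core particle, 4 of 14 in activators and the inhibitor, 4 of 5 in assembly chaperones and 0 of 4 in the genes that share only the naming.

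Recurrence and position went together in members as in all genes. Of the regions in 4 or more lists, 14 of 15 lay near the start (93.3%), against 79.8% of all protein-coding regions with that recurrence. The exception was the PSME3 region, with its median summit at nt 360. Of the regions in 2 or more lists it was 24 of 36 (66.7%, against 55.6%), with 12 of 18 in the regulatory particle and 6 of 9 in the core particle. Of those in 1 list it was 7 of 45 (15.6%, against 17.0%).

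The share of peaks near the start was higher in KO and WT than in the other conditions. Near the start lay 27 of 30 member peaks in KO (90%, against 72.7% of peaks on protein-coding genes), 11 of 23 in H2O2 (47.8%, against 40.4%), 22 of 52 in Starve (42.3%, against 33.3%), 25 of 44 in UT (56.8%, against 35.6%) and 17 of 21 in WT (81.0%, against 68.0%). The 4 member peaks of the second H2O2 list all lay beyond 300 nt, where 46.6% of that list's peaks on protein-coding genes lay within it. The KO and WT lists were also shorter, with 2175 to 3524 peaks, than the lists of the stress experiment, with 3903 to 11362, and the part of list length in these shares was not tested.

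**Figure D3:**
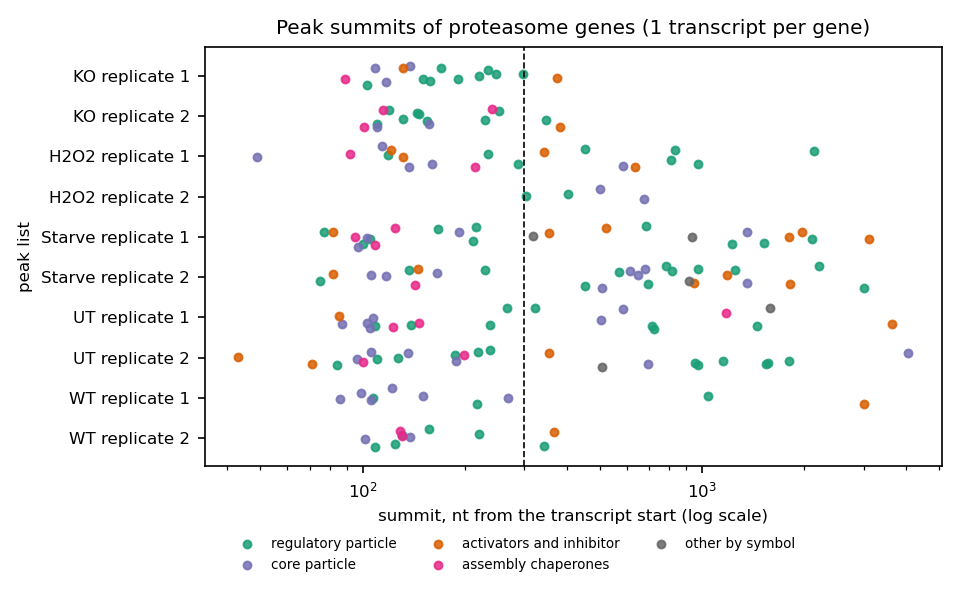
Summits of proteasome peaks on 1 transcript per gene, as distance from the transcript start in nt (log scale), for each peak list; colours give the class and the dashed line stands at 300 nt. In KO 27 of 30 points lie left of the line and in WT 17 of 21, while in H2O2 11 of 23, in Starve 22 of 52 and in UT 25 of 44 do; the 4 points of the second H2O2 list lie right of it.

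The windowed files give coverage of the IP libraries with and without demethylase treatment over KO or WT peaks, in windows of 10 nt every 5 nt, scaled by the authors to a sum of about 200 per region. They compare the shape of coverage within a region, not its amount. The demethylase columns of replicates 1 and 2 held the same coverage up to a factor per transcript, in 771 of 774 KO transcripts and 352 of 353 WT transcripts with at least 5 shared windows, whereas the IP columns did so in none. Each demethylase library was therefore counted as 1 sample (n = 1 per genotype, against n = 2 for IP), and it was assumed to vary like the IP libraries.

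PSMB4 was the only member among the 2922 windows that all 4 files share, with 28 of the 2514 windows that passed a mean coverage of 1. The limma test of the ratio of treated over IP coverage between KO and WT called 0 of these 28 (and 0 of all 2514, 0%) at an adjusted p under 0.05. At an unadjusted p under 0.05 there were 8 among the 28, 7 of them higher in KO, and 476 among all. The 7 were the windows from nt 26 to 60 and at nt 161 to 170, where the treated WT library had 0. Neighbouring windows share bases, so they are not separate results. Within KO, limma called 0 of 28 (0 of all, with 0 and 387 at an unadjusted p under 0.05). Within WT, limma called 2 of 28, both lower in the treated library, where 5.25% of all windows were called lower and 0.955% higher.

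The 2 windows flank the peak. In KO at nt 51 to 60 the treated columns had 4.64 and 3.47, against 4.38 and 3.36 in the IP libraries. At nt 51 to 60 in WT the treated library had 0 in both columns, against 6.06 and 4.92 in the WT IP libraries (log2 treated over IP -2.69 ± 0.147 SE, limma adjusted p = 0.0256). At nt 161 to 170 it had 0, against 3.71 and 4.42 in the IP libraries (log2 -2.34 ± 0.137 SE, limma adjusted p = 0.0256). Both calls end with the replicate as a block and without either KO replicate, and the cause was not tested. Without the first or the second WT replicate, 6 and 7 member windows were called. The KO ratio over the WT ratio at nt 51 to 60 was 2.75 ± 0.207 on the log2 scale, the lowest adjusted p of the member windows (limma, adjusted p = 0.0592).

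The treated WT coverage of PSMB4 was a plateau of 9.35 to 10.1 from nt 61 to 160, with 0 in the shared windows up to nt 60 and from nt 161 on, while the IP coverage tapered on both sides. Counted in the smallest step between values, the highest window of the treated KO library held 451 steps, against 449 and 362 in the KO IP libraries. A step need not be 1 read, since the pileups of PSMB4 in the KO lists were 229 and 170. In WT the treated library had 66, against 394 and 344 in the IP libraries. The part of this depth in the plateau was not tested.

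**Figure D4:**
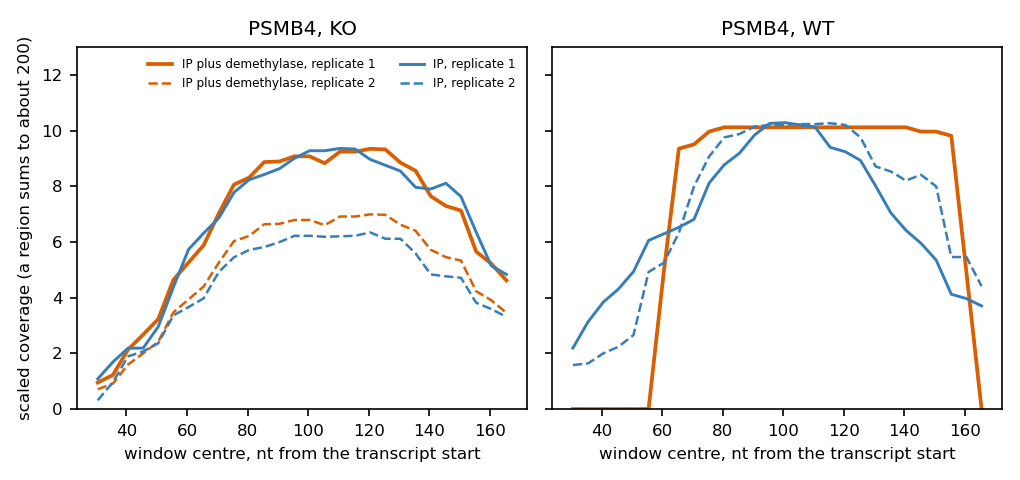
Scaled coverage of PSMB4 in 10 nt windows against the window centre in nt from the transcript start, in KO and WT; orange lines are the IP plus demethylase columns and blue lines the IP columns (solid replicate 1, dashed replicate 2). In WT the 2 treated columns are the same line, at 0 in the outermost windows, and in KO treated and IP lines of a replicate run together.

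In the 2 KO files together, 149 windows of PSMB4, PSMD1, PSMD6 (2 transcripts) and PSMG3 passed the coverage minimum. Treated against IP, limma called 0 of them and 0 of all 24531 windows (0%), with 49 and 5371 at an unadjusted p under 0.05, and the lowest adjusted p among members was 0.129. The centre of coverage was also compared within each KO file, which needs no shared windows. On PSMD6 the treated centre minus the IP centre was -34.2 to -19.2 nt, so nearer the start, in both KO files and both transcripts. On PSMD9 the treated centre lay 11.3 and 12.47 nt further along than the IP centre, and on PSMD3, a lid subunit, 10.2 and 16.2 nt further along. In the first KO file the median shift was 0.252 nt, with quartiles of -7.02 and 6.97 nt. That median was taken over the 2043 transcripts whose windows covered a limited span. Since the treated columns are 1 library, the agreement between the 2 files covers the IP libraries and region edges only. PSMD1 cannot be read this way, since its treated library had 4 steps in the highest window. Depth also limits PSMD9, with 30 steps in the treated library, and PSMD12 transcript NM_174871, with 54. On PSMD7 the difference was -12.5 and -6.38 nt, and on PSMD12 transcript NM_174871 -12.6 and -8.54 nt, so nearer the start in both files. On PSMD12 transcript NM_002816 it was -14.03 and 3.42 nt. On PSMB4, PSMD2, PSMD8 and PSMG3 it lay between -10.6 and 8.04 nt.

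Of 27 genes that work with the proteasome, 23 had a peak in some list, against 44.1% of protein-coding genes. The 27 included ubiquitin genes, shuttle factors, deubiquitinases, regulators of its transcription and the subunits SEM1 and ADRM1. UBB, a polyubiquitin gene, had one in all 10 lists, with folds of 3.53 to 8.81. NPLOC4, a cofactor of the segregase VCP, was in 9 lists, NFE2L1, the transcription factor of the proteasome recovery response, in 8, and UBQLN4, a shuttle factor, in 7. Against WT, RAD23B, UBQLN4 and UFD1 were called in KO alone (3 of 16, near the 16.3% of all genes) and none in WT alone (4.97% of all). Against UT, NGLY1 and TXNL1 were called in Starve alone (2 of 19, against 6.07% of all genes), and none in UT alone (4.08%). Between UT and WT, no gene of the list was called in UT alone (14.2% of all genes) and NFE2L2 in WT alone (1 of 17, against 1.57%). Of the related lid-like complexes, the COP9 signalosome had 4 of 10 genes in both KO lists and the translation factor EIF3 2 of 13. The unrelated chaperonin had 2 of 8. Beside these stand 5 of 8 for the PSMD genes of the proteasome lid and 7.13% of all protein-coding genes.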

How the data were processed

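RNA of 24 libraries in 12 groups was described by the labels; the files analysed hold 10 peak lists and 4 windowed tables. Trim Galore, HISAT, MACS2 and the build hg19 are named, without versions or order, per the submitters' processing notes. The authors deposited per peak a pileup (coverage signal at the summit), a fold enrichment over local background, and −log10 p-values and −log10 q-values, with 1 list per replicate, per the file headers. Positions are on RefSeq transcripts and were used as given. The deposited windowed coverage is scaled per region, and a deposited score holds treated minus IP coverage and was not used further. The control of each peak call is not stated in the labels or headers.

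Transcripts were given symbols from a RefSeq table (GRCh38.p14, names only; 17019 of 17315 matched). A gene was called in 1 group alone when both lists of that group and no list of the other held a peak on it; regions were peaks overlapping by 1 nt or more. The members and gene lists were chosen with earlier results of these data known. Named genes were those in 8 or more lists, called in 1 group alone, with the 3 highest folds of their class, or with windows; PSMD4 and PSMB6 were named outside this rule, for their recurrence, after their values were seen. Windows were fitted with limma 3.58.1 (R 4.3.3) on log2(coverage + 1) over all windows with a mean of at least 1, adjusted by Benjamini-Hochberg and tested on simulated data. The design had counted 2 treated libraries per genotype; after their columns were found to hold the same coverage, 1 was counted, so the lone treated library has no replicate. KO and WT share replicate numbers: deviations of same-numbered IP libraries correlated at 0.128 over 2514 windows, and no label ties the numbers to a shared day or culture. For the genes that work with the proteasome, the comparison of H2O2 with UT is not reported here.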

Additional observations from a re-analysis of the deposited data

How the results depend on the processing

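Of 168 alternative values for the counts and shares of the report, 117 kept close to the reported value and 51 moved, 10 of these among the 30 for core and regulatory particle genes in both lists of a condition. With equal numbers of top peaks, regulatory genes in both lists were 3 in KO, 0 in Starve, 1 in UT and 0 in WT, and core genes 0 in Starve and 0 in UT. With a fold of 4 or more, regulatory genes in both lists were 3 in KO, 2 in Starve and 0 in WT, and core genes 0 in KO. With a fold of 4 or more, the genes called in WT alone against KO were 0 and those called in UT alone against H2O2 were 1. With equal numbers of top peaks, the counts were 3 for KO alone and 0 for WT alone, and 1 for UT alone and 1 for WT alone in the comparison of UT with WT. With a −log10 q of 5 or more, 1 gene was called in WT alone against UT. Merged by region, UT alone against WT gave 0 at either overlap. With 1 list left out, counts ranged from 6 to 9 for KO alone and 1 to 6 for WT alone, 0 to 2 for H2O2 alone and 4 to 9 for UT alone, 4 to 8 for Starve alone and 1 to 5 for UT alone, and 5 to 10 for UT alone and 0 to 4 for WT alone. The share of regions near the start was 6.17% within 100 nt and 24.7% within 150 nt, and stayed within its interval with 500 nt, a fold of 4, all transcripts or any list left out.

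For the windows of PSMB4, a pseudocount of 0.1 called 3 in the ratio of KO over WT and 7 within WT. The fit with the replicate as a block called 0 in each, while the number is shared by label only. With a replicate left out, the ratio called 0 to 3, WT 0 to 7, and KO 0. Counting the treated columns as 2 libraries, added after the data were seen, called 7 in the ratio and 7 within WT. That setting enters the same coverage as 2 samples. Depth limits PSMD1 in KO, whose treated library had 4 steps in the highest window, and PSMB4 in WT, with 66 steps. It also limits the coverage centres of PSMD9 (30 steps) and PSMD12 transcript NM_174871 (54 steps) in KO.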
